A study of Drosophila melanogaster with 12 samples.

Results

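The RNA of S2 cells that made a recombinant wild-type BRM was compared with the RNA of BRM-depleted S2 cells. S2 is an established cell line of the fruit fly, made from embryos, with properties of the phagocytic blood cells called hemocytes. The recBRM-V5 cells (n = 2) carried a plasmid for wild-type BRM with a V5 tag and received double-stranded RNA (dsRNA) against BRM for 48 h at 30 µg per well, with copper sulfate during the last 24 h. The BRM-depleted cells (n = 2) were labelled empty, which names no plasmid, and received the same dsRNA. The study's methods set control S2 cells beside the stably transfected lines. These 4 libraries, chosen by their labels, are 4 of the 12 samples of the series and 4 of its 8 RNA-seq libraries. The other 4 RNA-seq libraries are given where they bear on a result. The recBRM-K804R-V5 cells (n = 2) carried a plasmid for BRM with a changed ATPase site and got the same dsRNA and copper. The control cells (n = 2) were labelled empty too and received dsRNA against GFP, a jellyfish protein that fly cells do not make. According to the study's methods both recombinant lines were stably transfected and the plasmids' BRM was under a metallothionein promoter, which copper turns on. The recBRM-V5 and BRM-depleted cells therefore differ in the recombinant protein, in the stable line with its plasmid and in copper, which the methods give for the recombinant lines. The parts of these 3 in any difference between the groups cannot be told apart. The recBRM-K804R-V5 cells share the dsRNA and the copper and are a stable line as well, so their values are given beside many of the results.

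BRM, or Brahma, is the ATPase of the SWI/SNF complexes of the fly, which use ATP to slide or evict nucleosomes and so change the access to DNA. The complexes come as BAP and PBAP, which share most subunits and differ in a few, such as Osa in BAP and Polybromo in PBAP. Brahma was found as a trithorax group gene, which acts against the Polycomb group repressors at developmental genes. Metallothioneins are small, cysteine-rich proteins that bind copper, zinc and cadmium. Their genes are turned on by metals through the factor MTF-1, which binds short metal response elements in their promoters.

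Since copper was used to turn on the plasmid and the metallothionein genes were among the genes with the largest differences, the promoters of 3 of them are printed first, as the 250 bases before the annotated gene start, 5′ to 3′. Capitals mark matches of the metal response element core TGCNCNC on either strand, where N is any base. The sequences are from RefSeq, genome Release 6. MtnA lies at chr3R:9784371-9784620, minus strand, MtnB at chr3R:20503747-20503996, minus strand and MtnD at chr3R:20534712-20534961, plus strand.

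MtnA: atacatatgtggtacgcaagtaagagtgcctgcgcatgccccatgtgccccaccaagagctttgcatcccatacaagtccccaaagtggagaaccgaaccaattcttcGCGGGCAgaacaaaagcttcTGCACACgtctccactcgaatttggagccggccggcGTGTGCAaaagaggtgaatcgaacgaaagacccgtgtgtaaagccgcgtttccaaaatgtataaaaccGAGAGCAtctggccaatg
MtnB: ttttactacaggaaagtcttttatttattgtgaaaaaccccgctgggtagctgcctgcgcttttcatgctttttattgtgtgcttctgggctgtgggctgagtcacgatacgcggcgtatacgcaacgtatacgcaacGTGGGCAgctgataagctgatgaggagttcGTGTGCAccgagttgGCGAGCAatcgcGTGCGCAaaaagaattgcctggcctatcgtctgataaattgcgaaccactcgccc
MtnD: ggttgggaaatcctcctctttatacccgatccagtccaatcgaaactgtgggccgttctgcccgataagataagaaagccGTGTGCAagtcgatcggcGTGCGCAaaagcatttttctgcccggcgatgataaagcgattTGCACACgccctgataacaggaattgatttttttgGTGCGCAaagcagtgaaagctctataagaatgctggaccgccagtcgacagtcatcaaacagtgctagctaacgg

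Each of the 3 printed stretches held 4 matches. In the window of 300 bases that ran from 250 before to 50 after the gene start, MtnA had 4 matches, MtnB had 5, MtnD had 4 and MtnE, another metallothionein gene, also had 4. The MtnD and MtnE genes are divergent neighbours whose windows overlap, and their 4 matches are the same bases, read from either side. At least 3 matches were found in 3.56% of the 872 promoters of genes called higher in recBRM-V5 cells, in 2.89% of the 589 promoters of genes called lower and in 1.89% of all 13961 protein-coding promoters of the annotation. At least 1 match was found in 37.3%, 35.0% and 33.7% of them. A match of the letters is a description of these windows and not a binding site.

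**Figure D1:**
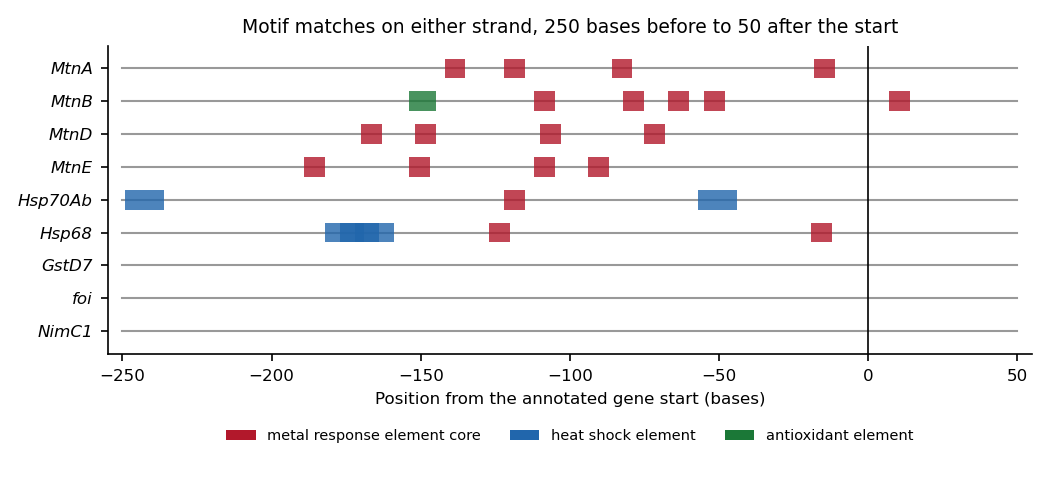
Positions of motif matches on either strand in the promoters of 9 genes, in bases from the annotated gene start (horizontal axis, 250 before to 50 after). Red boxes mark the metal response element core, blue boxes the heat shock element and green boxes the antioxidant element. The 4 metallothionein genes hold 4 or 5 red boxes each, and GstD7, foi and NimC1 hold no match of the 3 motifs.

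The counts per library summed to 8759362 and 7338514 in recBRM-V5 cells, 10287294 and 6600562 in recBRM-K804R-V5 cells, 6603905 and 6896037 in BRM-depleted cells and 9134692 and 8158092 in control cells. Levels are given in CPM, counts scaled to an equal library size with trimmed mean of M-values (TMM) factors, first replicate 1 and then replicate 2 of a group. A fold change is the log2 ratio fitted by edgeR, given as recBRM-V5 over BRM-depleted unless another pair is named, with its standard error, and a gene is called where the Benjamini-Hochberg adjusted p of edgeR's quasi-likelihood test over all 8165 tested genes is under 0.05. The replicates within recBRM-V5 differed most, with a chi-square per degree of freedom of 86.4 over genes, against 9.71 within BRM-depleted. With 2 libraries a group, the test leans on the spread of all 8 libraries. Levels are compared between groups for 1 gene and not between genes, since they are not per length.

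Of the 8165 tested genes, 1595 (19.5%) were called. They comprised 934 genes that rose (11.4%) and 661 that fell (8.10%). Counts of called genes in the gene groups below are to be read beside these shares. An unadjusted p under 0.05 was reached by 34.4%, and the libraries of the groups did not overlap for 60.3%. The median log2 fold change was 1.55 among the genes called higher, -1.09 among those called lower and 0.05 among all tested genes. A change of at least 1 on the log2 scale was seen for 676 genes called higher and 364 called lower, and a change of at least 2 for 346 and 128. Higher genes were 58.6% of the calls with TMM scaling but 46.8% (790 of 1689) with library size alone, a scaling that moved the median of all genes by -0.11 on the log2 scale. The count of calls was 415 without BRM-depleted replicate 1, 358 without BRM-depleted replicate 2, 2620 without recBRM-V5 replicate 1 and 1094 without recBRM-V5 replicate 2. The 1595 genes kept their direction in each of these 4 fits in which they were tested, and 414, 358, 1449 and 983 of them were still called.

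The level of brm itself, which counts the RNA of the plasmid and of the genome together, was 16634 and 24893 CPM in recBRM-V5 cells, against 177 and 175 CPM in BRM-depleted cells, and 2118 and 2005 CPM in recBRM-K804R-V5 cells and 433 and 446 CPM in control cells. It was higher in recBRM-V5 cells by 6.89 ± 0.33 on the log2 scale (adjusted p = 0.00012), between 6.56 and 7.14 over the alternative fits. Both libraries of BRM-depleted cells lay below both of control cells. The log2 fold change of BRM-depleted over control was -1.32 ± 0.26, and brm was not called in this comparison. The level in recBRM-V5 cells was above that in recBRM-K804R-V5 cells as well, by 3.33 ± 0.28 (adjusted p = 0.0013), so the stable lines differed in the amount of brm RNA in addition to the ATPase site. Among the 11 SWI/SNF subunit genes, all tested, brm was called higher and polybromo, which marks the PBAP form, was called lower. The level of polybromo was 105 and 92.9 CPM in recBRM-V5 cells, against 140.2 and 149 CPM in BRM-depleted cells (log2 fold change -0.55), and it was not called without recBRM-V5 replicate 2, without either library of BRM-depleted cells or with only the compared libraries. The other 9 were not called, so 9.09% rose and 9.09% fell, against 11.4% and 8.10% of all tested genes.

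**Figure D2:**
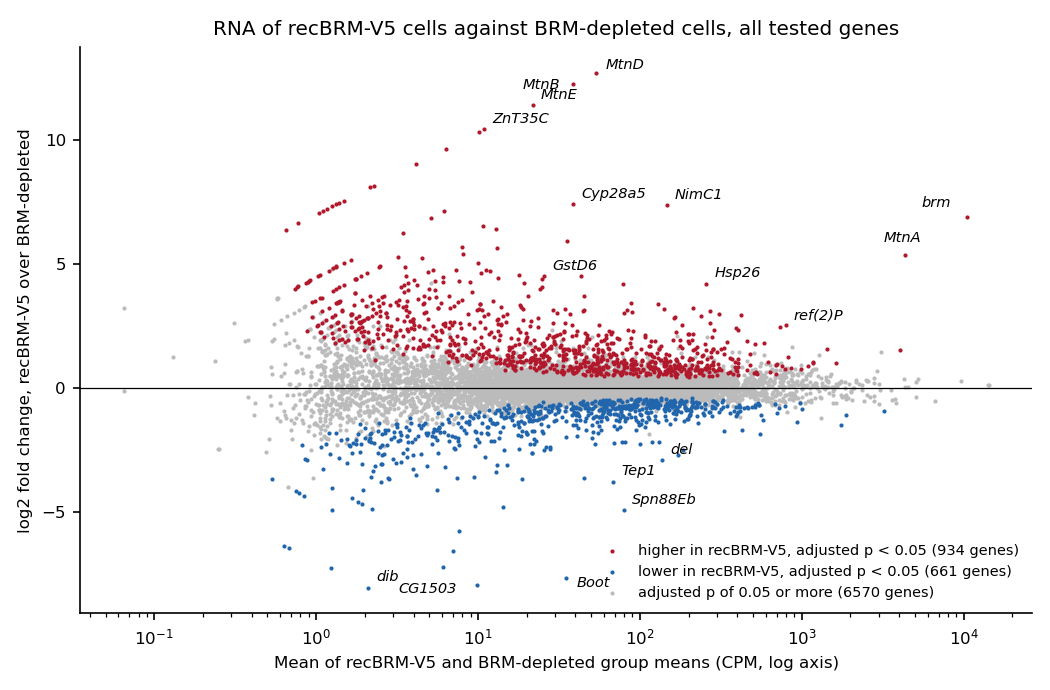
Log2 fold change of recBRM-V5 over BRM-depleted cells (vertical axis) against the mean of the group means (horizontal axis, CPM, log scale) for the 8165 tested genes. Red points are the 934 genes called higher, blue points the 661 genes called lower, and grey points the rest. Folds of genes with no count in a group, such as MtnB, MtnD, MtnE and dib, are fitted values and no bounds.

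Metallothioneins were the list with the highest median fold change in recBRM-V5 cells. All 4 tested metallothionein genes rose, and they did so in each fit that left out a library. The level of MtnA was 6763 and 10171 CPM in recBRM-V5 cells, against 214 and 195 CPM in BRM-depleted cells (log2 fold change 5.37 ± 0.34, adjusted p = 0.00024). MtnD, MtnB and MtnE had no count in either library of BRM-depleted cells. MtnD was at 97.3 and 116 CPM in recBRM-V5 cells, at least 247.7-fold higher against the level that 3 counts per library would give. MtnB was at 77.2 and 76.5 CPM, at least 178.4-fold higher, and MtnE at 33.1 and 53.9 CPM, at least 101.0-fold higher. The median log2 fold change of the 4 genes was 11.85 as fitted and 7.07 with these 3 at their bounds. MtnC had 1 count in all 8 libraries and MtnF had 0, so neither was tested.

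The metallothionein levels in recBRM-K804R-V5 cells, which also received copper, were 7429 and 5238 CPM for MtnA, 75.4 and 64.2 CPM for MtnD, 31.6 and 8.63 CPM for MtnB and 33.4 and 19.5 CPM for MtnE. None of the 4 was called between recBRM-V5 and recBRM-K804R-V5 cells, with differences of 0.42 ± 0.29, 0.61 ± 0.19, 1.91 ± 0.52 and 0.71 ± 0.36 on the log2 scale. In control cells MtnA stood at 188 and 223 CPM, 1 library below and 1 above the pair of BRM-depleted cells.

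Of 17 tested genes of copper and zinc handling, 7 rose and 1 fell, with a median log2 fold change of 0.36. The zinc transporter gene ZnT35C had no count in BRM-depleted cells and 16.7 and 27 CPM in recBRM-V5 cells, at least 50.7-fold higher. It was also 2.83 ± 0.41 higher than in recBRM-K804R-V5 cells, which had 2.7 and 3.48 CPM, unlike the other members of the group. The level of foi, a zinc importer of the ZIP family, was 625 and 969 CPM in recBRM-V5 cells, against 232 and 231 CPM in BRM-depleted cells (log2 fold change 1.79 ± 0.22, adjusted p = 0.0019). ZnT63C, a zinc exporter, was at 167 and 197 CPM in recBRM-V5 cells, against 99.7 and 100.3 CPM in BRM-depleted cells (log2 fold change 0.86). The copper importers rose too: Ctr1A was at 112 and 114.6 CPM in recBRM-V5 cells, against 73.8 and 76.4 CPM in BRM-depleted cells, and Ctr1B at 5.6 and 5.55 CPM in recBRM-V5 cells, against 1.32 and 2.1 CPM in BRM-depleted cells. ATP7, the copper-exporting ATPase, was at 79.3 and 114.6 CPM in recBRM-V5 cells, against 64.7 and 57.4 CPM in BRM-depleted cells and just passed the test (adjusted p = 0.049). Zip71B was the gene of this group that fell, to 0.834 and 0.427 CPM in recBRM-V5 cells, against 2.94 and 3.36 CPM in BRM-depleted cells. Without a library of BRM-depleted cells, 2 of the 17 genes rose and 0 fell for either library, without recBRM-V5 replicate 2, 4 rose and 0 fell, and without recBRM-V5 replicate 1, 9 rose and 2 fell. The study's supplement left out 7 genes as raised directly by copper sulfate. It does not say on which samples they were chosen, and these may be among them. Of the 7 genes, 5 rose (foi, ZnT63C, Ctr1A, Ctr1B and ATP7), and Zip99C and Mvl had log2 fold changes of 0.51 and 0.51 without passing. Of these 7, 3 were called without recBRM-V5 replicate 2 and 1 without either library of BRM-depleted cells.

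Glutathione S-transferases attach glutathione to reactive compounds, and 16 of the 27 tested genes of the family rose while 0 fell. The median log2 fold change was 1.55, against 0.05 for all tested genes. Of 35 genes listed, 8 did not pass the count filter and were not tested. GstD7 was at 59.2 and 54.3 CPM in recBRM-V5 cells, against 11.5 and 11.9 CPM in BRM-depleted cells (log2 fold change 2.28 ± 0.20, adjusted p = 0.00065). GstE7 was at 75.7 and 83.3 CPM in recBRM-V5 cells, against 10.6 and 7.71 CPM in BRM-depleted cells (log2 fold change 3.12 ± 0.28, adjusted p = 0.00065). The libraries of the groups did not overlap for either gene, which their call favours, as for 60.3% of all tested genes. GstD5 reached 434 and 539 CPM in recBRM-V5 cells, against 58.5 and 54.2 CPM in BRM-depleted cells, and GstD6 reached 46.4 and 51.9 CPM in recBRM-V5 cells, against 1.47 and 2.8 CPM in BRM-depleted cells. Both are neighbours in the GstD cluster, whose genes are close in sequence, so reads may be split unevenly among them. The stable lines differed in both directions here: GstD7 was lower in recBRM-V5 than in recBRM-K804R-V5 cells (log2 fold change -1.54, adjusted p = 0.0052), which had 145 and 185 CPM, whereas GstE7 and GstD2 were higher, by 1.57 and 2.56. These are the 3 genes of the family called between the stable lines. The number of family members that rose was 10 without BRM-depleted replicate 1 and 9 without replicate 2.

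The cap-n-collar factor Cnc, the fly relative of Nrf2, turns on antioxidant genes and is held back by Keap1. Of 21 tested genes of this pathway and of peroxide and thioredoxin metabolism, 9 rose and 0 fell, with a median of 0.99. The level of cnc was 230.1 and 265 CPM in recBRM-V5 cells, against 131 and 129 CPM in BRM-depleted cells (log2 fold change 0.93 ± 0.15), and Keap1 was at 30.1 and 43.9 CPM in recBRM-V5 cells, against 15 and 12.6 CPM in BRM-depleted cells (log2 fold change 1.42 ± 0.27). The gene of lowest p was ref(2)P, the fly p62, a receptor that brings ubiquitin-tagged proteins to autophagy, at 1080.4 and 1629 CPM in recBRM-V5 cells, against 236 and 235 CPM in BRM-depleted cells (log2 fold change 2.52 ± 0.22, adjusted p = 0.00065). Gclc, the catalytic subunit of the first enzyme of glutathione synthesis, was at 252 and 593 CPM in recBRM-V5 cells, against 62.8 and 48.9 CPM in BRM-depleted cells (log2 fold change 2.92 ± 0.43). Its recBRM-V5 libraries were far apart, as were those of the thioredoxin reductase gene Trxr1, at 126 and 529.7 CPM in recBRM-V5 cells, against 77 and 67.7 CPM in BRM-depleted cells. The library with the higher value was replicate 2 for both genes. Without BRM-depleted replicate 1, 3 genes of the group rose, and without replicate 2, 2 rose. Against recBRM-K804R-V5 cells, ref(2)P and Gtpx, a glutathione peroxidase gene, were higher, by 1.59 and 1.05 on the log2 scale. The antioxidant element TGACNNNGC was found in 8.03% of the promoters of genes called higher, 7.64% of those called lower and 8.62% of all.

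Chaperone genes, which respond to heat and to metals through heat shock factor (Hsf), were higher as well. Of 7 tested small heat shock protein genes 6 rose and 0 fell, with a median of 2.87. Of 16 tested genes of larger chaperones and Hsf 7 rose and 0 fell, with a median of 1.52. The median log2 fold changes of BRM-depleted over control were -0.58 and -0.39 for these lists, in that order. Hsp26 was at 293 and 685 CPM in recBRM-V5 cells, against 26.2 and 26.8 CPM in BRM-depleted cells (log2 fold change 4.21 ± 0.47, adjusted p = 0.0014), and Hsp23 was at 184 and 394 CPM in recBRM-V5 cells, against 44.8 and 33.9 CPM in BRM-depleted cells (log2 fold change 2.87 ± 0.54). The recBRM-V5 libraries of both genes differed by more than the libraries of BRM-depleted cells did, with replicate 2 the higher. Hsp67Bc was at 7.98 and 10.4 CPM in recBRM-V5 cells, against 0.588 and 0.841 CPM in BRM-depleted cells. The level of Hsp83, the fly Hsp90, was 4579 and 7354 CPM in recBRM-V5 cells, against 2017 and 2134 CPM in BRM-depleted cells (log2 fold change 1.52 ± 0.28), and Hsc70-5, the mitochondrial Hsp70, was at 661 and 1007 CPM in recBRM-V5 cells, against 422 and 389 CPM in BRM-depleted cells. Hsp70Ab was at 31.1 and 28.6 CPM in recBRM-V5 cells, against 4.85 and 6.44 CPM in BRM-depleted cells (log2 fold change 2.40 ± 0.32, adjusted p = 0.0026), but the copies of Hsp70 are near-identical, so the share of each copy is uncertain. Hsp70Aa had 1 count in all in BRM-depleted cells and 38 in recBRM-V5 cells, a ratio of 34.3 (95% interval of the counts 5.80 to 1391). Hsp68 was at 98.5 and 149 CPM in recBRM-V5 cells, against 44.1 and 39.6 CPM in BRM-depleted cells (log2 fold change 1.56 ± 0.37). The level of Hsp68 in recBRM-K804R-V5 cells was 162 and 70.3 CPM. Of the small heat shock protein genes, 2 rose without BRM-depleted replicate 1 and 1 without replicate 2. Of the larger chaperones and Hsf, 1 rose without either, and 12 without recBRM-V5 replicate 1.

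The heat shock element, searched as the blocks GAA, TTC and GAA with 2 bases between neighbours, was found in 1.15% of the promoters of genes called higher, 0.34% of those called lower and 0.43% of all, among the higher ones those of Hsp70 copies and Hsp68. The 250 bases before the starts of Hsp68 (chr3R:24057311-24057560, minus strand) and Hsp70Ab (chr3R:11958285-11958534, plus strand) show how the matches are placed in genes that rose, from RefSeq Release 6, with the matches on either strand in capitals.

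Hsp68: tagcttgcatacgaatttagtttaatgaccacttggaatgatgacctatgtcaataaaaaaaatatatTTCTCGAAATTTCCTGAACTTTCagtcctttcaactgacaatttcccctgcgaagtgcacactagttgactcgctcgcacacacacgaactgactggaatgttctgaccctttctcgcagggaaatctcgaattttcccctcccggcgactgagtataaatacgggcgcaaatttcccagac
Hsp70Ab: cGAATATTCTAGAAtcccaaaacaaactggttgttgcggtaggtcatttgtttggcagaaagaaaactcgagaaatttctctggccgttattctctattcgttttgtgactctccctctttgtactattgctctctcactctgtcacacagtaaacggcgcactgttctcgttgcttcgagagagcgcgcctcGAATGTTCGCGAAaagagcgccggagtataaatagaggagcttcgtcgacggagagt

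In Hsp68 3 overlapping matches made 1 block, and in Hsp70Ab 2 matches lay apart. No match of these letters was in the windows of the small heat shock protein genes tested.

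**Figure D3:**
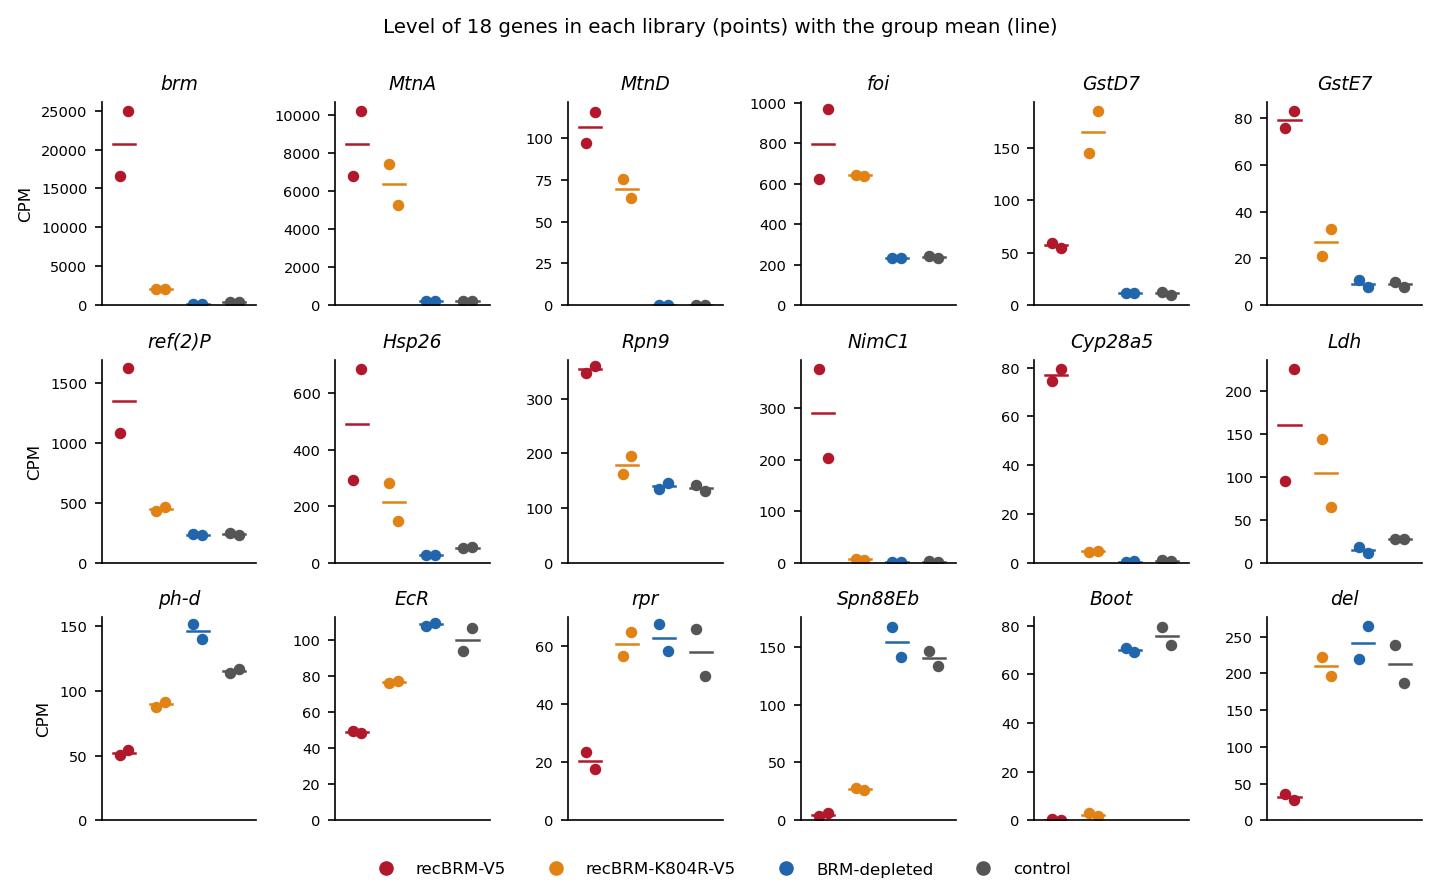
Levels of 18 genes in each library (CPM, vertical axes starting at 0), with points for the libraries and a line for the mean of the group. Groups are recBRM-V5, recBRM-K804R-V5, BRM-depleted and control, from left to right. MtnA and MtnD are high in both copper-treated lines, NimC1 and Cyp28a5 in recBRM-V5 alone, and del and rpr are low in recBRM-V5 alone.

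The proteasome, which degrades ubiquitin-tagged proteins, was the group with the largest number of called genes. Of 33 tested subunit genes among 41 listed, 27 rose and 0 fell, with a median log2 fold change of 1.12, and all 33 had a fold change above 0. Both parts of the particle took part. In the core, Prosalpha5 was at 148 and 264 CPM in recBRM-V5 cells, against 67.6 and 59.4 CPM in BRM-depleted cells (log2 fold change 1.70 ± 0.26) and Prosbeta5, a catalytic subunit, at 179 and 201 CPM in recBRM-V5 cells, against 104 and 81.3 CPM in BRM-depleted cells (log2 fold change 1.03 ± 0.16). In the cap, Rpn9 was at 347 and 360.1 CPM in recBRM-V5 cells, against 134 and 146 CPM in BRM-depleted cells (log2 fold change 1.33 ± 0.15, adjusted p = 0.0014) and Rpt5, an ATPase, at 249.7 and 317 CPM in recBRM-V5 cells, against 129 and 119 CPM in BRM-depleted cells (log2 fold change 1.19 ± 0.15, adjusted p = 0.0024). The summed level of the listed subunits was 5129 and 8085 CPM in recBRM-V5 cells, against 3259 and 2885 CPM in BRM-depleted cells, and it was 4862 and 4716 CPM in recBRM-K804R-V5 cells and 3334 and 3989 CPM in control cells. Replicate 2 of recBRM-V5 was thus the highest library and replicate 2 of BRM-depleted the lowest. The count of genes that rose was 12 without recBRM-V5 replicate 2, 6 without BRM-depleted replicate 1 and 2 without BRM-depleted replicate 2. Against recBRM-K804R-V5 cells 3 were higher: Rpn9 by 0.98, Rpt5 by 0.75 and Prosbeta4 by 0.66. The genes of cytoplasmic ribosomal proteins were taken as another large particle. Of 79 tested, 1 rose, RpS19b, and 0 fell, but 64 had a fold change above 0, with a median of 0.49. The median log2 fold change of BRM-depleted over control was -0.69 for these genes and -0.29 for the proteasome. The part of this lower level after depletion in the fold changes was not tested.

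Cytochrome P450 enzymes oxidize steroids, fatty acids and foreign compounds, and 17 of the 47 tested genes rose while 2 fell, with a median of 0.67. Of 77 genes listed, 30 did not pass the count filter. Cyp28a5 was at 74.5 and 79.4 CPM in recBRM-V5 cells, against 0.147 and 0.701 CPM in BRM-depleted cells (log2 fold change 7.43 ± 0.40, adjusted p = 0.00014). It was among the 12 highest fold changes of all called genes and was 4.04 ± 0.29 above its level in recBRM-K804R-V5 cells, 4.4 and 5.0 CPM. Leaving out 1 pseudogene, 6 of the 9 tested Cyp6a genes rose, and Cyp6a8, Cyp6a13 and Cyp6a14 were not called, with log2 fold changes of 1.66, 0.56 and -0.86. Cyp6a20 was at 371 and 397 CPM in recBRM-V5 cells, against 40.7 and 42.2 CPM in BRM-depleted cells, and Cyp6a22 was at 36.3 and 29.6 CPM in recBRM-V5 cells, against 2.79 and 3.64 CPM in BRM-depleted cells. Cyp4p3 was at 12.5 and 19.1 CPM in recBRM-V5 cells, against 0.441 and 0.28 CPM in BRM-depleted cells (log2 fold change 5.39 ± 0.47), and Cyp12c1, which belongs to a mitochondrial clade, was at 39.1 and 29.2 CPM in recBRM-V5 cells, against 4.7 and 2.8 CPM in BRM-depleted cells (log2 fold change 3.18 ± 0.28). The level of Cyp12c1 in recBRM-K804R-V5 cells was 53.3 and 50.6 CPM. Both genes that fell, Cyp4ac2 and Cyp6v1, had log2 fold changes of -1.12 and -0.79. Against recBRM-K804R-V5 cells, 6 genes of the family were higher and 0 lower, where 2.51% and 2.23% of all tested genes were called. The counts in recBRM-V5 against BRM-depleted cells were 11 higher and 0 lower without BRM-depleted replicate 2, 12 higher and 0 lower without BRM-depleted replicate 1, 18 higher and 1 lower without recBRM-V5 replicate 2, and 17 higher and 6 lower without recBRM-V5 replicate 1.

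UDP-glucosyltransferases, which attach sugars to lipophilic compounds, had 9 of 15 tested genes higher and 2 lower, with a median of 1.69. Of 34 genes listed, 19 did not pass the count filter. Ugt37D1 was at 59.5 and 80.9 CPM in recBRM-V5 cells, against 1.47 and 0.841 CPM in BRM-depleted cells (log2 fold change 5.91 ± 0.47, adjusted p = 0.00053), and Ugt35C1 at 56.2 and 39 CPM in recBRM-V5 cells, against 1.47 and 2.94 CPM in BRM-depleted cells (log2 fold change 4.42 ± 0.35, adjusted p = 0.00053). Ugt36D1 went the other way, with 0.476 and 0.142 CPM in recBRM-V5 cells, against 4.26 and 5.18 CPM in BRM-depleted cells (log2 fold change -3.81 ± 0.51), and Ugt305A1 had 1 count in recBRM-V5 cells and 23 in BRM-depleted cells. In recBRM-K804R-V5 cells Ugt36D1 was low as well, at 0.20 and 0.303 CPM. Without a library of BRM-depleted cells 5 genes of the family rose for either library, and 2 fell without replicate 1 and 1 without replicate 2, while 8 rose and 3 fell without recBRM-V5 replicate 1, and 6 rose and 1 fell without recBRM-V5 replicate 2.

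Enzymes of glycolysis and of the steps around it moved mostly one way, with 10 of 15 tested genes higher and 1 lower. The median was 0.97, and that of BRM-depleted over control was -0.47. Ldh, lactate dehydrogenase, was at 94.8 and 226 CPM in recBRM-V5 cells, against 18.1 and 11.3 CPM in BRM-depleted cells (log2 fold change 3.45 ± 0.52, adjusted p = 0.0042), and Pfk, phosphofructokinase, the committed step of the pathway, was at 86.1 and 150.3 CPM in recBRM-V5 cells, against 29.99 and 29.6 CPM in BRM-depleted cells (log2 fold change 1.99 ± 0.29, adjusted p = 0.0039). Eno, enolase, was at 289 and 794 CPM in recBRM-V5 cells, against 167 and 131 CPM in BRM-depleted cells, and Tpi, triose phosphate isomerase, was at 14.8 and 58.6 CPM in recBRM-V5 cells, against 5.73 and 5.6 CPM in BRM-depleted cells. Replicate 2 of recBRM-V5 had the higher value in each of these 4 genes. In control cells, Tpi was at 7.92 and 14.4 CPM and Eno at 177 and 304 CPM, where replicate 2 was again the higher. The gene that fell was Pepck1, phosphoenolpyruvate carboxykinase, which runs the reverse path to glucose, at 35.5 and 36.1 CPM in recBRM-V5 cells, against 102 and 105 CPM in BRM-depleted cells (log2 fold change -1.53 ± 0.37). Without recBRM-V5 replicate 2, 4 genes rose and 0 fell, and without BRM-depleted replicate 1 or 2, 2 and 1 rose and 0 fell. None of the 15 was called between the stable lines.

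Among the receptors by which hemocytes bind bacteria and dead cells, some were higher in recBRM-V5 cells than in the other stable line too. Of 15 tested genes of Nimrod and scavenger receptors, 9 rose and 0 fell, with a median of 1.59. NimC1, a phagocytosis receptor of mature hemocytes, was at 376 and 205 CPM in recBRM-V5 cells, against 1.18 and 2.24 CPM in BRM-depleted cells (log2 fold change 7.39 ± 0.43, adjusted p = 0.00022). Its level was 6.99 and 5.6 CPM in recBRM-K804R-V5 cells and 2.74 and 1.83 CPM in control cells, so that both recBRM-V5 libraries lay far above the 6 others. NimC2 had no count in BRM-depleted cells and was at 8.69 and 7.82 CPM in recBRM-V5 cells, at least 19.2-fold higher. NimB5, a secreted member of the family, was at 50.02 and 40.8 CPM in recBRM-V5 cells, against 4.12 and 1.54 CPM in BRM-depleted cells (log2 fold change 4.01 ± 0.39, adjusted p = 0.00084), and NimB3 was at 21.1 and 18.9 CPM in recBRM-V5 cells, against 1.03 and 0.56 CPM in BRM-depleted cells (log2 fold change 4.63 ± 0.50). NimC4, also called Simu, was at 156 and 144 CPM in recBRM-V5 cells, against 33.2 and 27.3 CPM in BRM-depleted cells, but higher still in recBRM-K804R-V5 cells, at 310.1 and 216 CPM. The gene of Draper, drpr, an engulfment receptor, was at 477 and 426 CPM in recBRM-V5 cells, against 296 and 314 CPM in BRM-depleted cells (log2 fold change 0.56). Against recBRM-K804R-V5 cells 6 of the 15 genes were higher (NimC1, NimB5, NimB3, NimB1, NimB2 and Sr-CI) and 0 lower. The number that rose against BRM-depleted cells was 6 without either library of BRM-depleted cells, 9 without recBRM-V5 replicate 1 and 11 without recBRM-V5 replicate 2.

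Other hemocyte genes moved both ways, with 2 of 12 tested genes higher and 3 lower. These are 16.7% and 25%, against 11.4% and 8.10% of all tested genes. Hemese, a surface protein of hemocytes encoded by He, was at 310.5 and 165 CPM in recBRM-V5 cells, against 19.4 and 25.8 CPM in BRM-depleted cells (log2 fold change 3.39 ± 0.37, adjusted p = 0.0013). Pxn, peroxidasin, an enzyme of the basement membrane, was at 414 and 432 CPM in recBRM-V5 cells, against 139.6 and 142 CPM in BRM-depleted cells (log2 fold change 1.59 ± 0.20, adjusted p = 0.0021). Both were above recBRM-K804R-V5 cells too, by 4.49 and 2.21. Hml, hemolectin, a clotting factor and a standard hemocyte marker, fell to 254 and 223 CPM in recBRM-V5 cells, against 737 and 993 CPM in BRM-depleted cells (log2 fold change -1.86 ± 0.46), and it was lower still in recBRM-K804R-V5 cells, at 97.7 and 29.7 CPM. PPO2, a prophenoloxidase of crystal cells, was at 0.238 and 0.569 CPM in recBRM-V5 cells, against 5.14 and 5.32 CPM in BRM-depleted cells, and kn, the factor Collier of lamellocyte formation, at 1.07 and 0.427 CPM in recBRM-V5 cells, against 3.38 and 2.38 CPM in BRM-depleted cells. Without either library of BRM-depleted cells 2 genes of the group rose and 0 fell, and 2 rose and 4 fell without recBRM-V5 replicate 1.

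Genes of receptor tyrosine kinase signalling, from ligands and receptors to downstream kinases and factors, rose in 10 of 28 tested genes. Of the 28, 0 fell, and the median was 0.32. The receptor genes Pvr and Egfr were not called, with log2 fold changes of -0.50 and 1.13. The downstream kinase genes Raf, Dsor1 and rl were not called either. Among ligands, Pvf1 was at 211 and 143 CPM in recBRM-V5 cells, against 53.5 and 54.9 CPM in BRM-depleted cells (log2 fold change 1.71 ± 0.21, adjusted p = 0.0019) and Pvf3 at 86.6 and 98 CPM in recBRM-V5 cells, against 32.5 and 39.1 CPM in BRM-depleted cells (log2 fold change 1.37 ± 0.16, adjusted p = 0.0018), both relatives of the vertebrate growth factors PDGF and VEGF, and bnl, the FGF Branchless, was at 46.2 and 39.1 CPM in recBRM-V5 cells, against 14.4 and 13.5 CPM in BRM-depleted cells (log2 fold change 1.61 ± 0.19, adjusted p = 0.0018). Of the receptors, htl, the FGF receptor Heartless, was at 91.3 and 60.3 CPM in recBRM-V5 cells, against 14.1 and 18.8 CPM in BRM-depleted cells (log2 fold change 2.20 ± 0.26, adjusted p = 0.0019), and Alk was at 63.4 and 41.5 CPM in recBRM-V5 cells, against 6.03 and 5.88 CPM in BRM-depleted cells (log2 fold change 3.14 ± 0.62). Genes around the EGF receptor included rho, the protease that releases its ligand, at 38.1 and 40.5 CPM in recBRM-V5 cells, against 11.9 and 10.4 CPM in BRM-depleted cells (log2 fold change 1.82 ± 0.20, adjusted p = 0.0014), and 2 inhibitors, aos at 301 and 203 CPM in recBRM-V5 cells, against 66.7 and 66.8 CPM in BRM-depleted cells and kek1 at 354 and 364 CPM in recBRM-V5 cells, against 152 and 168 CPM in BRM-depleted cells. Against recBRM-K804R-V5 cells 3 genes of the group were higher, htl by 1.73, rho by 1.47 and pyr, an FGF ligand, by 1.47. The group had 6 genes higher without either library of BRM-depleted cells.

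Matrix and cytoskeleton genes were called in part. Of 13 tested genes of the basement membrane and matrix 5 rose and 1 fell. Mmp1, a matrix metalloproteinase, was at 109 and 156 CPM in recBRM-V5 cells, against 42.3 and 42.9 CPM in BRM-depleted cells (log2 fold change 1.64 ± 0.28), and Ndg, nidogen, fell to 1.67 and 3.84 CPM in recBRM-V5 cells, against 28.4 and 18.8 CPM in BRM-depleted cells (log2 fold change -3.12 ± 0.44). Of 17 tested actin genes and regulators 6 rose and 1 fell. The level of chic, profilin, was 1631 and 1518 CPM in recBRM-V5 cells, against 753 and 822 CPM in BRM-depleted cells (log2 fold change 1.00 ± 0.18), and the gene that fell was Act79B, at 34.1 and 56.9 CPM in recBRM-V5 cells, against 129 and 103 CPM in BRM-depleted cells. Without either library of BRM-depleted cells 1 matrix gene rose and 1 fell, and 0 actin genes were called. Without recBRM-V5 replicate 2, 3 matrix genes rose and 1 fell, and 2 actin genes rose and 1 fell, and with library size alone 3 actin genes rose.

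**Figure D4:**
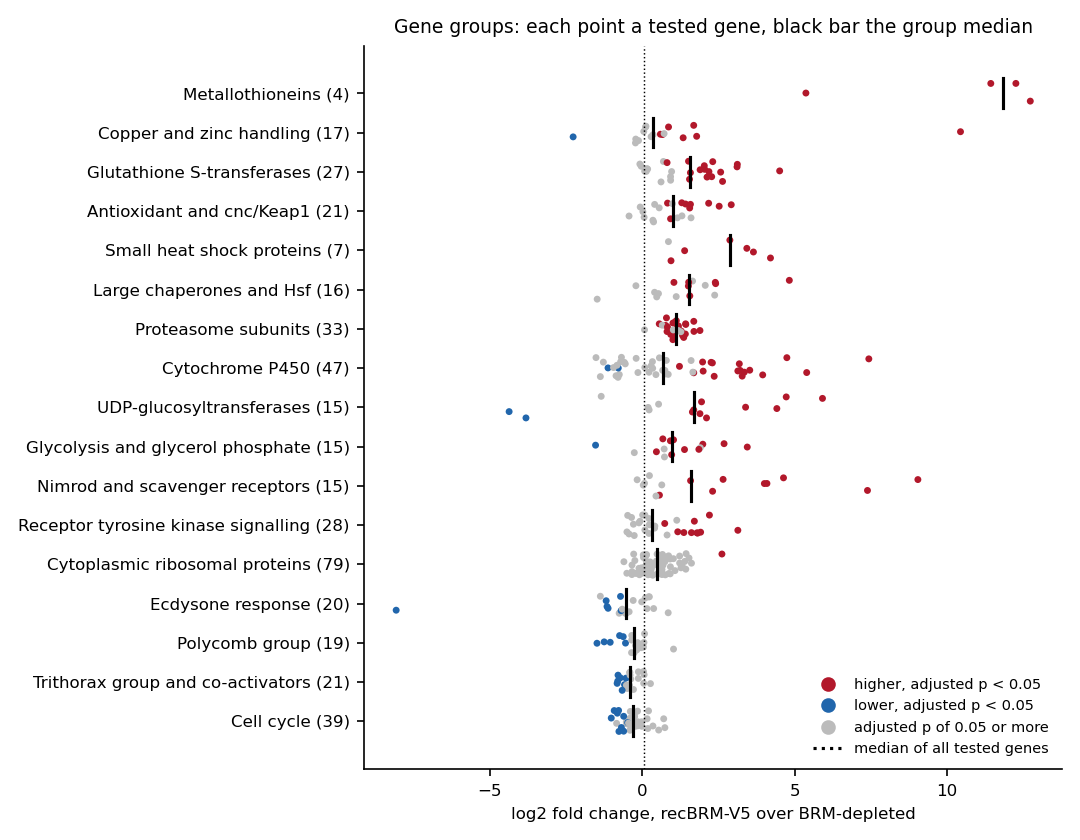
Log2 fold change of recBRM-V5 over BRM-depleted cells (horizontal axis) for the tested genes of 17 groups, each point a gene, with the number tested in brackets. Red points were called higher, blue points lower and grey points not called. The black bar is the median of the group and the dotted line that of all tested genes, 0.05. The metallothionein bar uses fitted folds of genes with no count in BRM-depleted cells. Proteasome, chaperone and glutathione S-transferase points lie mostly to the right, and Polycomb, trithorax and ecdysone points mostly to the left of the line.

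In the lists of Polycomb group, trithorax group and other remodeler genes, the called genes were lower in recBRM-V5 cells. Of 19 tested Polycomb group genes 6 fell and 0 rose, with a median of -0.27. The gene of lowest p was ph-d, which encodes Polyhomeotic, a subunit of the repressive complex PRC1, at 50.3 and 54.2 CPM in recBRM-V5 cells, against 152 and 140.1 CPM in BRM-depleted cells (log2 fold change -1.48 ± 0.13, adjusted p = 0.00064). Its neighbour and near copy ph-p was at 40.5 and 49.5 CPM in recBRM-V5 cells, against 96.3 and 89.9 CPM in BRM-depleted cells (log2 fold change -1.05 ± 0.15), and reads that fit both genes could be counted for either. Psc, another PRC1 subunit, was at 33.9 and 40.4 CPM in recBRM-V5 cells, against 88.5 and 88 CPM in BRM-depleted cells (log2 fold change -1.25 ± 0.17, adjusted p = 0.0028), and E(z), the methyltransferase of PRC2, was at 48 and 39.8 CPM in recBRM-V5 cells, against 70.7 and 64.7 CPM in BRM-depleted cells (log2 fold change -0.62 ± 0.15). Kdm2 and Jarid2 had log2 fold changes of -0.74 and -0.55. Without either library of BRM-depleted cells 3 fell, and 4 fell without recBRM-V5 replicate 2. Only ph-d was called between the stable lines, lower in recBRM-V5 than in recBRM-K804R-V5 cells by -0.78 ± 0.13.

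Trithorax group genes and co-activators fell in 7 of 21 tested genes, and 0 rose, with a median of -0.41. They were trx, the methyltransferase that names the group, at 181 and 149 CPM in recBRM-V5 cells, against 264 and 309 CPM in BRM-depleted cells, nej, the acetyltransferase CBP, at 135 and 152 CPM in recBRM-V5 cells, against 204 and 224 CPM in BRM-depleted cells, trr, fs(1)h, skd, tna and psq. The log2 fold changes of the 7 lay between -0.82 for trr and -0.53 for fs(1)h. The libraries of the groups did not overlap for trx and nej, which their call favours, as for 60.3% of all tested genes. The number that fell was 0 without BRM-depleted replicate 1 or 2, 4 without recBRM-V5 replicate 2, 10 (with 1 higher) without recBRM-V5 replicate 1, and 11 with library size alone. Of 20 tested genes of other chromatin remodelers 3 fell and 0 rose: simj at 49.7 and 48.6 CPM in recBRM-V5 cells, against 112 and 101 CPM in BRM-depleted cells (log2 fold change -1.11 ± 0.14, adjusted p = 0.002), which acts in the NuRD complex, Chd3 and E(bx), the large subunit of NURF. Of these remodelers 1 fell without recBRM-V5 replicate 2 or either library of BRM-depleted cells.

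The ecdysone response is the program by which the steroid hormone of moulting acts through the receptor EcR, and S2 cells are known to respond to the hormone. Of 20 tested genes, 6 fell and 0 rose, with a median of -0.55. EcR was at 49.3 and 48.4 CPM in recBRM-V5 cells, against 108 and 109.6 CPM in BRM-depleted cells (log2 fold change -1.15 ± 0.13, adjusted p = 0.0016), and was lower than in recBRM-K804R-V5 cells too, by -0.65 ± 0.13. Oatp74D, which encodes an ecdysone importer, was at 82.1 and 55.9 CPM in recBRM-V5 cells, against 160.1 and 154 CPM in BRM-depleted cells (log2 fold change -1.18 ± 0.22), and the nuclear receptor gene ftz-f1 was at 156 and 97.4 CPM in recBRM-V5 cells, against 260.2 and 290.4 CPM in BRM-depleted cells. The gene dib, a P450 of ecdysone synthesis, had no count in recBRM-V5 cells and 2.79 and 5.6 CPM in BRM-depleted cells, at least 10.7-fold lower, and no count in recBRM-K804R-V5 cells either. Without either library of BRM-depleted cells 2 genes fell, and 4 fell without recBRM-V5 replicate 2.

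Cell cycle genes fell in 9 of 39 tested genes, and 0 rose, with a median of -0.30. The level of stg, the phosphatase Cdc25 that starts mitosis, was 274 and 252 CPM in recBRM-V5 cells, against 473 and 522 CPM in BRM-depleted cells (log2 fold change -0.92 ± 0.18). The mitotic kinase gene polo was at 326 and 269.8 CPM in recBRM-V5 cells, against 486 and 526 CPM in BRM-depleted cells (log2 fold change -0.76 ± 0.17), and Mcm5, of the replicative helicase, was at 63.5 and 67.7 CPM in recBRM-V5 cells, against 109 and 102 CPM in BRM-depleted cells (log2 fold change -0.68 ± 0.13). No gene of the list was called without BRM-depleted replicate 1 or 2, while 5 fell without recBRM-V5 replicate 2 and 13 fell and 2 rose without recBRM-V5 replicate 1. Among 13 tested genes of apoptosis, rpr, the killer gene reaper, fell to 23.3 and 17.8 CPM in recBRM-V5 cells, against 67.3 and 58.1 CPM in BRM-depleted cells (log2 fold change -1.61 ± 0.21, adjusted p = 0.0026), and Debcl, a Bcl-2 family gene, rose to 60.9 and 87.6 CPM in recBRM-V5 cells, against 33.5 and 26.6 CPM in BRM-depleted cells. With 1 call each way, 7.69% of the apoptosis genes rose and 7.69% fell, against 11.4% and 8.10% of all tested genes. The level of rpr in recBRM-K804R-V5 cells was 56.5 and 64.8 CPM, with a difference between the stable lines of -1.56 ± 0.21.

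Immune signalling genes of the Toll and Imd pathways had 2 of 30 tested genes higher and 5 lower. These are 6.67% and 16.7%, against 11.4% and 8.10% of all tested genes. PGRP-LE, an intracellular sensor of bacterial peptidoglycan, was at 3.1 and 5.55 CPM in recBRM-V5 cells, against 23.8 and 25.5 CPM in BRM-depleted cells (log2 fold change -2.52 ± 0.30, adjusted p = 0.0018), and Dif, a Rel family factor of the Toll pathway, was at 146 and 130.0 CPM in recBRM-V5 cells, against 242 and 242 CPM in BRM-depleted cells (log2 fold change -0.81 ± 0.16). The sensors PGRP-SA and PGRP-SD rose, by 1.81 and 1.58 on the log2 scale. Without either library of BRM-depleted cells 1 gene fell and 0 rose, and without recBRM-V5 replicate 1, 3 rose and 10 fell. Of 7 tested antimicrobial peptide genes 1 rose, Dro, at 2.5 and 4.84 CPM in recBRM-V5 cells, against 0.294 and 0.701 CPM in BRM-depleted cells. In JAK/STAT signalling 1 of 10 tested genes rose, et, and in the Notch pathway, of 11 tested genes, Ser rose and the receptor gene fell. Higher calls made up 14.3% of the peptide genes, 10% of JAK/STAT and 9.09% of Notch, against 11.4% of all tested genes. Lower calls made up 0%, 0% and 9.09%, against 8.10%. No gene of these 3 groups was called without either library of BRM-depleted cells. Of 16 tested genes of the stress response of the endoplasmic reticulum 4 rose and 0 fell, among them Xrp1, at 1143 and 1669 CPM in recBRM-V5 cells, against 771 and 769 CPM in BRM-depleted cells, and 1 and 0 rose without BRM-depleted replicate 1 and 2.

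Among the called genes whose libraries did not overlap, the 12 with the highest fold change, ranked with a prior count of 2, were MtnD, MtnB, MtnE, NimC1, brm, Cyp28a5, ZnT35C, DNaseII, SIFaR, Ugt37D1, CG7299 and Actbeta. DNaseII, a lysosomal nuclease, had no count in BRM-depleted cells and 23.8 and 16.8 CPM in recBRM-V5 cells, at least 47.1-fold higher. SIFaR, the receptor of a neuropeptide, had no count there either and was at 8.1 and 17.2 CPM, at least 29.4-fold higher. CG7299 was at 26.1 and 25 CPM in recBRM-V5 cells, against 0.147 and 0.42 CPM in BRM-depleted cells (log2 fold change 6.40 ± 0.63, adjusted p = 0.00088). Actbeta, a ligand of the activin family, had 3 counts in BRM-depleted cells and 325 in recBRM-V5 cells, a ratio of 97.9 (95% interval 33.2 to 477). In recBRM-K804R-V5 cells DNaseII was at 0.30 and 0.757 CPM, SIFaR at 0.0999 and 0.757 CPM, CG7299 at 1.1 and 1.97 CPM and Actbeta at 1.5 and 8.18 CPM.

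The 12 with the lowest fold change were Boot, CG1503, CG42581, Ir41a, CG41562, Spn88Eb, l(2)41Ab, dib, Tep1, CG43179, CG4576 and CG34430. Boot, the piRNA factor Bootlegger, was at 0.476 and 0.142 CPM in recBRM-V5 cells, against 71 and 69.2 CPM in BRM-depleted cells (log2 fold change -7.69 ± 0.36, adjusted p = 0.00012). Spn88Eb, a serpin or inhibitor of serine proteases, was at 3.69 and 6.4 CPM in recBRM-V5 cells, against 167 and 141 CPM in BRM-depleted cells (log2 fold change -4.95 ± 0.25, adjusted p = 0.00013), and Tep1, a thioester protein of the immune response, was at 9.53 and 8.96 CPM in recBRM-V5 cells, against 128 and 128 CPM in BRM-depleted cells (log2 fold change -3.79 ± 0.24, adjusted p = 0.00024). CG1503 had 1 count in recBRM-V5 cells and 276 in BRM-depleted cells, a 305-fold lower level (95% interval 54.4 to 12108). CG42581 had 1 count against 169, 187-fold lower (33.1 to 7431), and Ir41a, an ionotropic receptor gene, had 2 counts against 193, 107-fold lower (29.2 to 888). CG41562 was at 0.476 and 0 CPM in recBRM-V5 cells, against 15.4 and 14.4 CPM in BRM-depleted cells. l(2)41Ab was at 1.31 and 0.569 CPM in recBRM-V5 cells, against 22.5 and 32.9 CPM in BRM-depleted cells (log2 fold change -4.82 ± 0.53), and CG34430 was at 2.62 and 2.7 CPM in recBRM-V5 cells, against 32.9 and 36.3 CPM in BRM-depleted cells (log2 fold change -3.69 ± 0.23, adjusted p = 0.00022). CG43179 was at 0.476 and 0.711 CPM in recBRM-V5 cells, against 8.08 and 13 CPM in BRM-depleted cells. The intervals cover counting error alone, not the spread between cultures.

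The second question was which genes shifted by depletion were brought back. In BRM-depleted against control cells, 0 genes passed an adjusted p under 0.05 in edgeR (0.00% of 8165, lowest adjusted p 0.19), 378 had an unadjusted p under 0.05, and DESeq2 called 14 higher and 6 lower and limma-voom 0. Other edgeR fits called 41 higher and 25 lower with no count filter, and 30 higher and 14 lower with only the compared libraries. The 378 genes (4.63%) had libraries that did not overlap, and they are taken as shifted: 196 higher (2.40%) and 182 lower (2.23%) in BRM-depleted cells. With the unadjusted threshold, single genes of the set are uncertain, and their number was 989 with only the compared libraries. Brought back means called in recBRM-V5 against BRM-depleted cells in the direction opposite to the shift. This was so for 109 of the 378 genes (28.8%), 52 of the 196 that were higher (26.5%) and 57 of the 182 that were lower (31.3%). Among all tested genes, 8.10% were called lower and 11.4% higher in this comparison. These are the directions of return for genes shifted higher and lower, in that order. In the same direction as the shift, 35 genes were called, 23 higher and 12 lower, and 234 were not called. Both comparisons use the same 2 libraries of BRM-depleted cells, so an error in these libraries moves a gene out and back, and no test of the count is given. When the shift was read with 1 library of BRM-depleted cells and the return with the other, 22 of 157 genes were brought back and 11 went further with the replicates taken one way, and 16 of 209 and 7 the other way. The count was 26 of 215 without BRM-depleted replicate 1 and 24 of 158 without replicate 2, 48 of 172 without control replicate 2, 397 of 753 without recBRM-V5 replicate 1 and 102 of 751 without recBRM-V5 replicate 2.

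The end of the return was read from recBRM-V5 against control cells in the same fit, where 18.2% of the tested genes were called, 10.9% higher and 7.24% lower. Of the 109 genes, 80 were not called against control, 28 were called past the control level and 1, CG12398, was called short of it. An absent call does not show that a level is equal to that of control cells. The log2 fold change of the return had a median of -1.44 for the 52 genes that had been higher, against a median shift of 0.92, and of 1.30 for the 57 that had been lower, against a median shift of -0.73.

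After brm itself, the genes brought back with the lowest p that had fallen in BRM-depleted cells were CG10433, Naam, CG32206, CG9098 and NtR. CG10433 was at 227 and 280.3 CPM in recBRM-V5 cells, 28.2 and 27.9 CPM in BRM-depleted cells and 40.5 and 49.96 CPM in control cells. Naam, nicotinamide amidase, which starts the recycling of nicotinamide to NAD, was at 147 and 134 CPM in recBRM-V5 cells, 26.9 and 28.4 CPM in BRM-depleted cells and 39.8 and 33.1 CPM in control cells. CG32206 was at 40.1 and 28.2 CPM in recBRM-V5 cells, 1.76 and 1.12 CPM in BRM-depleted cells and 3.48 and 2.44 CPM in control cells, and CG9098 at 49.7 and 49.9 CPM in recBRM-V5 cells, 11 and 11.9 CPM in BRM-depleted cells and 17.4 and 16.7 CPM in control cells. NtR was at 163 and 154 CPM in recBRM-V5 cells, 57.3 and 61.8 CPM in BRM-depleted cells and 86.7 and 82.4 CPM in control cells. All 5 were called above control cells as well, so they passed the level from which they had fallen. Each was also higher than BRM-depleted cells in recBRM-K804R-V5 cells, which had 201 and 153 CPM of CG10433, 64.2 and 59.2 CPM of Naam, 37.6 and 32.9 CPM of CG32206, 31 and 29.1 CPM of CG9098 and 106 and 95.3 CPM of NtR.

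Those that had risen in BRM-depleted cells and were brought back with the lowest p were CG4576, CG31808, ph-d and CG34431. CG4576 was at 7.26 and 5.83 CPM in recBRM-V5 cells, 79.5 and 86.9 CPM in BRM-depleted cells and 37.8 and 39 CPM in control cells, and CG31808 at 8.46 and 6.68 CPM in recBRM-V5 cells, 43.2 and 44.3 CPM in BRM-depleted cells and 22.1 and 20.2 CPM in control cells. The level of ph-d, given above, was 114 and 117 CPM in control cells, with a shift of 0.34 ± 0.13 on the log2 scale. CG34431 was at 1.07 and 1.14 CPM in recBRM-V5 cells, 13.2 and 14.4 CPM in BRM-depleted cells and 8.66 and 8.16 CPM in control cells. These 4 ended below control cells. Genes that ended without a call against control included 3 of the 10 shifted genes of lowest p. CG7997 was at 41.4 and 25.9 CPM in recBRM-V5 cells, 68.9 and 78.6 CPM in BRM-depleted cells and 24.3 and 25.2 CPM in control cells (unadjusted p of the shift 0.00018), CG5895 was at 6.91 and 6.68 CPM in recBRM-V5 cells, 14 and 13.2 CPM in BRM-depleted cells and 4.12 and 4.75 CPM in control cells (p 0.0002) and CG5731 was at 11.2 and 9.24 CPM in recBRM-V5 cells, 31.2 and 37.7 CPM in BRM-depleted cells and 14.5 and 11.9 CPM in control cells (p 0.00024). For these 3 genes, both libraries of recBRM-V5 cells lay below both of BRM-depleted cells, which their call as brought back already favours.

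**Figure D5:**
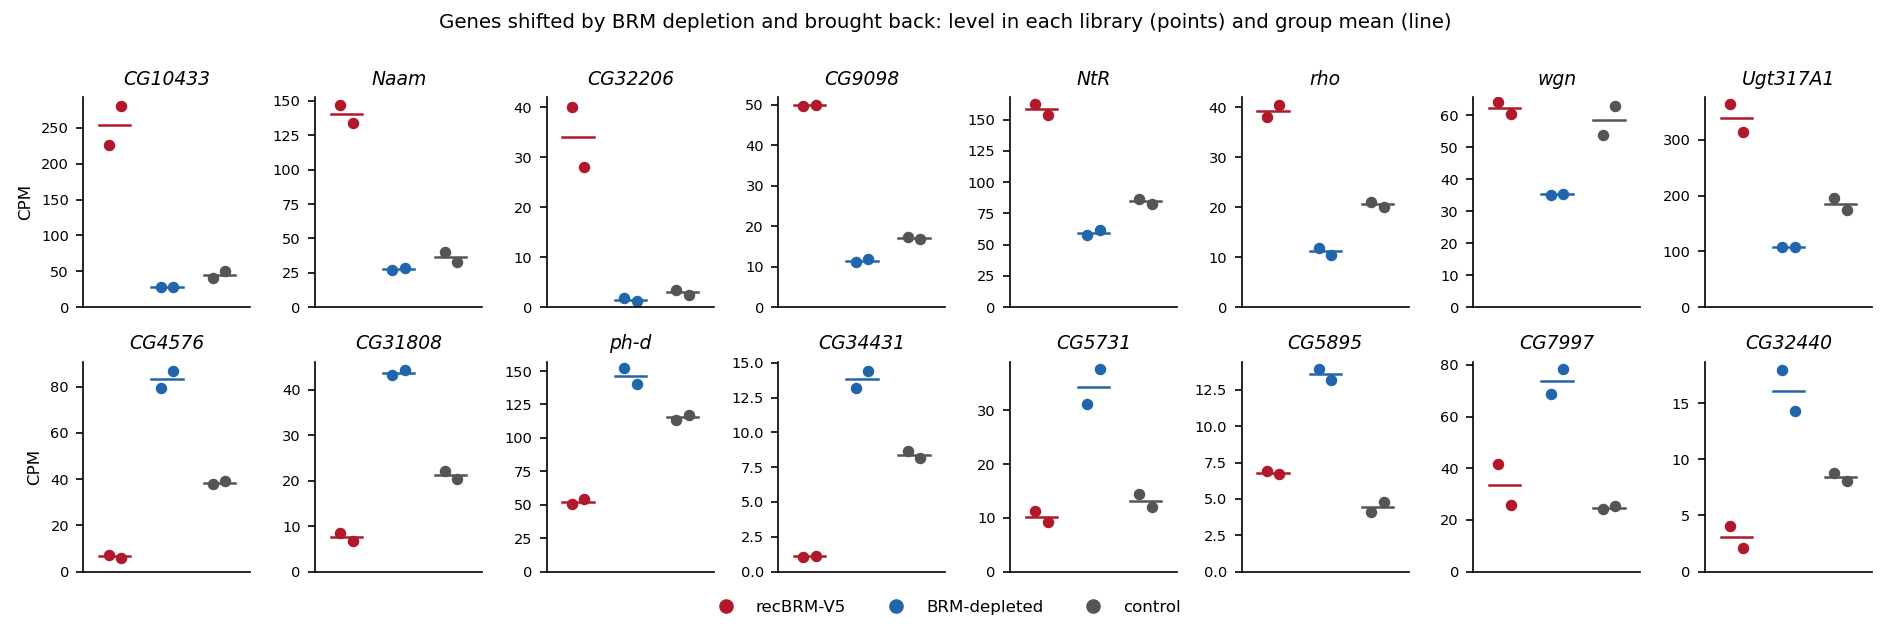
Levels in each library (CPM, vertical axes starting at 0) of 16 genes that were shifted in BRM-depleted against control cells and called back in recBRM-V5 cells, with points for libraries and a line for the group mean. Groups are recBRM-V5, BRM-depleted and control from left to right. CG10433 to Ugt317A1 are lowest in BRM-depleted cells, and CG4576 to CG32440 highest.

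Genes of known pathways among those brought back were rho, wgn, Ser, Hsp26, Gapdh1, Glt and Ugt317A1, which were lower in BRM-depleted than in control cells, and ChAT and Zip71B, which were higher. The level of rho was 38.1 and 40.5 CPM in recBRM-V5 cells, 11.9 and 10.4 CPM in BRM-depleted cells and 21.1 and 19.98 CPM in control cells. A receptor of the fly TNF, wgn, was at 64.2 and 60.4 CPM in recBRM-V5 cells, 35 and 35.4 CPM in BRM-depleted cells and 53.9 and 62.7 CPM in control cells. Ser, the Notch ligand Serrate, was at 87.8 and 108 CPM in recBRM-V5 cells, 46.4 and 47.9 CPM in BRM-depleted cells and 61.4 and 78 CPM in control cells. In these 3 genes the depletion libraries were the lowest and did not overlap those of either other group. Their selection as shifted and brought back requires the first part against control cells and favours the rest, so this adds no support. Glt, glutactin, a matrix protein, was at 2504 and 1805 CPM in recBRM-V5 cells, 749 and 705 CPM in BRM-depleted cells and 1296 and 1459 CPM in control cells. Ugt317A1 was at 364 and 315 CPM in recBRM-V5 cells, 108 and 109 CPM in BRM-depleted cells and 196 and 174 CPM in control cells, and Gapdh1 at 151 and 268 CPM in recBRM-V5 cells, 85.1 and 74.7 CPM in BRM-depleted cells and 107 and 154 CPM in control cells, where 1 library of recBRM-V5 cells lay within the range of control cells. Of 7 shifted P450 genes 0 were brought back and 2 went further, and of 3 shifted glutathione S-transferase genes 0 were brought back and 1 went further.

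Genes called further in the direction of the shift included CG18754 and CG9360, both among the 10 shifted genes of lowest p. CG18754 was at 32.2 and 32 CPM in recBRM-V5 cells, 11.2 and 10.8 CPM in BRM-depleted cells and 4.54 and 4.26 CPM in control cells, and CG9360 at 44.8 and 47.8 CPM in recBRM-V5 cells, 22 and 20.04 CPM in BRM-depleted cells and 6.44 and 8.89 CPM in control cells. Cyp4e2 was at 207 and 153 CPM in recBRM-V5 cells, 77.8 and 76.6 CPM in BRM-depleted cells and 49.4 and 30.7 CPM in control cells, and Dif, which fell further, at 146 and 130.0 CPM in recBRM-V5 cells, 242 and 242 CPM in BRM-depleted cells and 328 and 302 CPM in control cells. The rest of those 10 were CG12398, at 35 and 25.7 CPM in recBRM-V5 cells, 16.8 and 18.4 CPM in BRM-depleted cells and 60.6 and 48.9 CPM in control cells, brought back in part, and 4 that were not called, dlp, CG3397, tara and Pgant2. dlp, which encodes a heparan sulfate proteoglycan of the cell surface, was at 41.6 and 44.5 CPM in recBRM-V5 cells, 51.6 and 53.9 CPM in BRM-depleted cells and 17 and 21 CPM in control cells, so that its level in recBRM-V5 cells stayed well above that of control cells.

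The study's supplement names 24 genes that differed after depletion, among those it classed as independent of the ATPase. That class held BRM-bound genes that changed the same way with wild-type and mutant BRM in these samples. The choice therefore rests in part on the same recBRM-V5 libraries, and the list is not all of the study's depletion genes. Of the 24, 23 were tested, and 20 of them met the definition of shifted, 9 higher and 11 lower. In recBRM-V5 cells 4 were brought back (brm, CG10433, CG32440 and CG12398), 5 went further (CG15211, yellow-f2, GstD3, Cyp6a9 and CG42394), and 11 were not called. CG32440 was at 4.05 and 2.13 CPM in recBRM-V5 cells, 17.9 and 14.3 CPM in BRM-depleted cells and 8.76 and 8.04 CPM in control cells, and CG15211 was at 12.5 and 14.9 CPM in recBRM-V5 cells, 27.9 and 31.8 CPM in BRM-depleted cells and 54.8 and 55.6 CPM in control cells. Both fell in recBRM-V5 against BRM-depleted cells, which took CG32440, higher after depletion, back to and below the level of control cells, and CG15211, lower after depletion, further from it.

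The direct comparison of recBRM-V5 with recBRM-K804R-V5 cells, both with plasmid, copper and dsRNA against BRM, called 387 of the 8165 genes (4.74%), 205 higher (2.51%) and 182 lower (2.23%). The count was 153 without recBRM-K804R-V5 replicate 1 and 209 without replicate 2. It shares the recBRM-V5 libraries with the comparison against BRM-depleted cells. Of the 24 genes with the highest and lowest fold changes named above, 12 were called between the stable lines: 7 higher in recBRM-V5 cells (NimC1, brm, Cyp28a5, ZnT35C, DNaseII, SIFaR and CG7299) and 5 lower (Boot, CG1503, CG42581, Spn88Eb and CG4576). Spn88Eb, for example, was at 3.69 and 6.4 CPM in recBRM-V5 cells, 28.4 and 25.9 CPM in recBRM-K804R-V5 cells and 167 and 141 CPM in BRM-depleted cells. Tep1, in contrast, was at 5.6 and 8.18 CPM in recBRM-K804R-V5 cells, and the difference between the stable lines was 0.45 ± 0.26.

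BRM binding was another readout of these genes, from chromatin immunoprecipitation (ChIP) of endogenous BRM in S2 cells with matching input, 2 replicates each. The ratio of mean coverage over the gene in the antibody sample to that in the input was at least 1.1 for 14.8% of the 910 genes called higher with input signal, 13.9% of the 628 called lower and 9.33% of the 7930 tested. With replicate 1 alone the shares were 32.2%, 27.2% and 22.4%, and with replicate 2 alone 17.8%, 12.9% and 11.7%. Genes called lower were longer, with a median gene length of 4604 bases, against 2992 for those called higher and 2729 for all tested, and had a higher median level in BRM-depleted cells, 62.5 CPM, against 14.6 and 36.6. Of the genes called higher 11.5% lie on the X chromosome, of those called lower 23.6% and of all tested 17.0%. Level and length bear on what the test can call, and their part in these shares was not tested.

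Markers checked the labelled cell type. The 9 blood cell markers of S2 cells summed to 11017 and 15418 CPM in recBRM-V5 cells, against 11750 and 10151 CPM in BRM-depleted cells. Most of the sum came from 2 collagen genes, and NimC1 was between 1.18 and 6.99 CPM outside recBRM-V5 cells. Summed neuron markers were at 79.3 and 71.5 CPM in recBRM-V5 cells, against 118 and 115.2 CPM in BRM-depleted cells, with elav and ChAT lower and brp higher, and VGlut at 0. Germline markers were at 136 and 134 CPM, against 214 and 245 CPM, with aub and AGO3 lower and osk higher. The fat body markers were at 2.38 and 3.13 CPM, against 5.29 and 6.16 CPM, and those of the ovarian soma at 17.7 and 17.9 CPM, against 25.6 and 38.1 CPM. Muscle markers, at 557 and 434 CPM against 456 and 521 CPM, overlapped and had 0 of 4 tested genes called. The part of these markers in the results was not tested. In such bulk samples fewer cells with a gene on and less RNA per cell cannot be told apart.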

How the data were processed

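RNA-seq of S2 cells (8 libraries, 4 groups of 2 biological replicates by the labels) and BRM ChIP-seq (4 samples) were used. For the count table the authors mapped directional poly(A) reads with TopHat2 and deposited raw HTSeq counts per gene (the strand setting is not given in the sources used here). For ChIP-seq the authors mapped reads with Bowtie 2 and deposited coverage signal per gene from ngs.plot. The submitters' processing notes name the build dm3, and the files hold no coordinates. Gene names came from Ensembl BDGP6.54 (12428 of 12986 identifiers, 95.7%) and promoters from RefSeq Release 6.

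Genes kept by edgeR's filterByExpr (8165 of 12986) were tested in R 4.3.3 with edgeR 4.0.16, TMM factors, glmQLFit and glmQLFTest over all 8 libraries (4 residual degrees of freedom, common biological coefficient of variation 0.19), with Benjamini-Hochberg adjusted p under 0.05. The standard error is the fold change over the square root of F. A gene with no count in a group got a bound at 3 counts per library, and 1 to 3 counts an exact 95% interval. Intervals and bounds cover counting error only. Library totals ran from 6600562 to 10287294 counts. ChIP ratios were immunoprecipitate over input coverage, averaged over replicates, for genes with input of at least 0.5 in both.

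Named genes were brm, all metallothioneins, the copper and depletion genes of the study's supplement, the 12 highest and 12 lowest fold changes (prior count 2) among called genes without overlap, the 10 shifted and 10 brought-back genes of lowest p, called list members and heads of pathways. The comparison, its members and the gene lists were chosen with earlier results of these data known. Alternatives used DESeq2 1.42.0, limma 3.58.1 (voom), other scalings, filters, thresholds, a replicate block and libraries left out. The test was checked on simulated counts in which all groups had the same spread per gene. The check did not cover an unequal spread between groups, as seen here.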

Additional observations from a re-analysis of the deposited data

Results flagged for a closer look

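Of the 24 genes with the highest and lowest fold changes in recBRM-V5 against BRM-depleted cells, 12 also differed between recBRM-V5 and recBRM-K804R-V5 cells, by edgeR's quasi-likelihood test of that difference with Benjamini-Hochberg adjustment (n = 2 libraries a group). This test asks whether the effect of the recombinant line against BRM-depleted cells differs between the lines. It called 4.74% of all tested genes, and the 24 genes were picked on the same recBRM-V5 libraries. The genes higher in recBRM-V5 cells on the log2 scale were NimC1 by 5.51 (adjusted p = 0.00093), DNaseII by 5.33 (adjusted p = 0.0058), SIFaR by 5.02 (adjusted p = 0.017), CG7299 by 4.09 (adjusted p = 0.0049), Cyp28a5 by 4.04 (adjusted p = 0.00093), brm by 3.33 (adjusted p = 0.0013) and ZnT35C by 2.83 (adjusted p = 0.013).

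The genes lower in recBRM-V5 than in recBRM-K804R-V5 cells had log2 fold changes of -6.94 for CG1503 (adjusted p = 0.0023), -4.40 for CG42581 (adjusted p = 0.035), -2.85 for Boot (adjusted p = 0.016), -2.44 for Spn88Eb (adjusted p = 0.0023) and -1.90 for CG4576 (adjusted p = 0.012). In each of the 12, both libraries of recBRM-V5 cells lay on one side of both of recBRM-K804R-V5 cells. The 12 were chosen by their call in this comparison, which favours such separation, so it adds no support. For CG1503 and CG42581 the fold rests on 1 count in recBRM-V5 cells and is a fitted value. The lines are separate stable lines that differ in brm RNA as well, so line, amount and ATPase site cannot be told apart.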

How the results depend on the processing

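The 1595 called genes kept their direction in each of the 13 alternative fits, where they were fitted. These fits reuse libraries on which the genes were called, which favours a kept direction. The count of calls was 1033 with the 4 compared libraries alone, 588 at adjusted p under 0.01, 1040 with a log2 change of at least 1 and 2809 at unadjusted p under 0.05 (the last chosen after seeing the data), and leaving out a library gave 358 to 2620. Calls in the gene lists, 239 in all, were 73 to 337 without a library. Shifted genes, 378 in all, were 755 with no count filter, 989 with only the compared libraries, 96 at unadjusted p under 0.01 (chosen after seeing the data), 158 to 433 without a BRM-depleted or control library and 751 and 753 without a recBRM-V5 library. Brought-back genes, 109 in all, were 280 with no count filter, 46 at adjusted p under 0.01, 34 with the shift at unadjusted p under 0.01, 22 and 16 with the BRM-depleted libraries split between shift and return, 10 of 20 with DESeq2's adjusted p as the shift (chosen after seeing the data), and 24 to 397 without a library. Calls between recBRM-V5 and recBRM-K804R-V5, 387 in all, were 718 with no count filter, 105 with only the compared libraries, 105 at adjusted p under 0.01 and 153 to 411 without a library. The share of called genes with a ChIP ratio of at least 1.1, 14.4%, was 42.1% at a limit of 1.0 (30.2% of all tested genes) and 30.2% with ChIP replicate 1 alone (22.4% of all tested genes).

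The replicate numbers do not pair the libraries throughout: same-numbered libraries of recBRM-V5 and BRM-depleted cells deviated with a correlation of -0.32 across genes, control and BRM-depleted with -0.31, recBRM-K804R-V5 and control with -0.28 and recBRM-V5 and recBRM-K804R-V5 with -0.27, whereas recBRM-V5 and control cells, compared for the end of the return, had 0.63 and recBRM-K804R-V5 and BRM-depleted cells 0.24. A replicate block gave 1385 calls, 338 shifted and 94 brought back, and 279 between the stable lines. With the numbers of BRM-depleted and recBRM-K804R-V5 cells crossed in the block, chosen after seeing the data, 2740 genes were called. Named genes that changed sign without a library were uncalled ones, CG3397 (between -0.34 and 0.021 on the log2 scale), Sr-CI (between -0.42 and 1.24) and pyr (between -0.34 and 0.63).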

Other observations

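Genes of the piRNA pathway, by which short RNAs silence transposons in germ cells, formed a list made after their values were seen, so its counts are a description with no test. Of 28 tested genes among 33 listed, 12 were called lower in recBRM-V5 than in BRM-depleted cells and 0 higher, with a median log2 fold change of -0.57. Besides Boot, the largest change was in del, the gene of Deadlock, which joins Rhino at piRNA clusters, at 35.8 and 27.9 CPM in recBRM-V5 cells, against 219 and 265 CPM in BRM-depleted cells. In recBRM-K804R-V5 cells del was at 222 and 197 CPM, near BRM-depleted cells. The level of moon, Moonshiner, which starts transcription at such clusters, was 8.22 and 9.1 CPM in recBRM-V5 cells, against 34.4 and 28.3 CPM in BRM-depleted cells, and 27.5 and 22.1 CPM in recBRM-K804R-V5 cells. For armi, the helicase Armitage, with 145 and 136 CPM in recBRM-V5 cells, against 296 and 324 CPM in BRM-depleted cells, recBRM-K804R-V5 cells were low too, at 94.7 and 113 CPM, and the same held for aub, the Piwi protein Aubergine, at 28.7 and 28.6 CPM in recBRM-V5 cells, against 79.1 and 88.3 CPM in BRM-depleted cells, with 30.2 and 16.4 CPM in recBRM-K804R-V5 cells. The gene piwi itself was not called, at 34.8 and 43.8 CPM in recBRM-V5 cells, against 28.2 and 37 CPM in BRM-depleted cells.

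NAD salvage was another list made after values were seen. Besides Naam, the gene Naprt, for the enzyme that makes nicotinic acid mononucleotide, was at 312 and 358 CPM in recBRM-V5 cells, against 86.1 and 88.5 CPM in BRM-depleted cells, and 172 and 203 CPM in recBRM-K804R-V5 cells. Nmnat, for the enzyme that adds the adenylyl group, was at 21.1 and 30.1 CPM in recBRM-V5 cells, against 10.9 and 9.95 CPM in BRM-depleted cells, whereas Nadsyn, for the last amidation to NAD, was lower, at 56.1 and 47.8 CPM in recBRM-V5 cells, against 93 and 91.8 CPM in BRM-depleted cells. Of the 4 genes 3 were called higher and 1 lower.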
